A study of Mus musculus with 6 samples.

Results

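Epithelial cells are held together and kept sealed and polarised by junction and polarity proteins, some of which other cells also express. The account below concerns 38 genes of that machinery in whole mammary glands: adherens junctions, desmosomes, tight junctions, the polarity complexes, a set of surface adhesion proteins and proteases, and regulators of epithelial splicing and trafficking. Members were taken by name, with earlier results of these data known. Each was read through probe sets annotated to its symbol alone, using its brightest such set by the mean of the 6 arrays. Of the 38 genes, 37 could be read this way among 18193 genes in all, and Dsg3 was not analysed here. RNA came from 3 WT and 3 Cav-3KO glands of virgin females aged 4 months, every animal of the FVB/N background, and each gland was read on 1 array. Cav-3KO is the submitters' label for a knockout of caveolin-3, a caveola coat protein best known from muscle. The labels do not say how the allele was made, which cells it affects or whether each gland came from a separate mouse. P-values therefore measure only the spread between these 6 arrays, which may be technical.

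Values are log2 signals, so a difference of 1 is a 2-fold change. Differences are Cav-3KO minus WT with a standard error (SE) from limma, and "rose" or "fell" is written only where the Benjamini-Hochberg adjusted p over all probe sets was under 0.05. Array medians lay between 5.77 and 5.80. Cav3 itself read 4.79, 5.02 and 4.74 in WT 1 to 3 and 4.76, 4.83 and 4.72 in Cav-3KO 1 to 3 (adjusted p = 0.679 by limma), so these values did not check the genotype. The labels do not say whether its probe set lies in the deleted part. The keratins that define the luminal layer (Krt8, Krt18) and the basal layer (Krt5, Krt14) were present on every array, from 7.79 upwards, while 9 probe sets of Y-linked genes, a measure of background in females, had means of 2.04 to 3.25.

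An adherens junction links the cadherins of neighbouring cells through catenins to actin, and a desmosome links desmogleins and desmocollins through plakoglobin, plakophilins and desmoplakin to keratin. Tight junctions close the gap between cells near the lumen, which keeps milk components apart from the interstitium, and polarity complexes set where that belt forms. In the mammary gland the luminal cells carry the tight junctions, and desmosomes join luminal and basal cells.

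Promoters of 18 of the 37 members were found in the RefSeq table (GRCm38.p6), and 19 had no entry there. Each window runs from 250 bases before a transcript start to 50 after it. The search was for the E-box CACCTG, the element bound by the Snail and Zeb repressors of epithelial genes, and for AACCNGTT, bound by grainyhead factors that activate them, on both strands. These motifs were chosen after the values of the genes were known. At least 1 E-box was present in 13 of the 18 member genes (72.2%), against 22.9% of the 14452 measured genes with a window and 20.2% of all 32851 windows. At least 2 copies in a window were found for 9 of the 18 members, against 3.56% of the measured genes with a window. The grainyhead letters were found in 2 members, Cgn and Rab25 (11.1%), against 2.3% of the measured genes. Member windows had a median GC content of 63.3%, against 52.7% over all windows. A match is a description of the letters and does not show that a factor binds there. Of the 16 members with a window that rose, 11 held at least 1 E-box (68.8%). Crb3 and Dsp, which did not pass the test between genotypes, also held at least 1. The 5 windows below belong to members that rose and show how the copies lie. Capitals mark the motifs, which is CACCTG or its reverse complement CAGGTG throughout except for AACAGGTT in Cgn and AACCTGTT in Rab25.
Epcam, chr17:87635729-87636028, plus strand: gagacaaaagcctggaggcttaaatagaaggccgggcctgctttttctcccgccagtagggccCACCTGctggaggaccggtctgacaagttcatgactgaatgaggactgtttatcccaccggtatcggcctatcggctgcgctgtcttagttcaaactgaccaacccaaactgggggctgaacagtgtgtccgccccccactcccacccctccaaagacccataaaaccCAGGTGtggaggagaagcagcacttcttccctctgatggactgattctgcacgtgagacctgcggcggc
Spint2, chr7:29281928-29282227, minus strand: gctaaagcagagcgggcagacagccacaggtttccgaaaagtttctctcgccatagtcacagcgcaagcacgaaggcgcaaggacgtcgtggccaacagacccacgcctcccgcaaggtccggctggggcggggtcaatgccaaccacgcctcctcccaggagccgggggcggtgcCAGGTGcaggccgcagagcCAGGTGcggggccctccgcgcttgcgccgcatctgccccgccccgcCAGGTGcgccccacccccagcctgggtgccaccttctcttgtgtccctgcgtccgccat
Pard6b, chr2:168080754-168081053, plus strand: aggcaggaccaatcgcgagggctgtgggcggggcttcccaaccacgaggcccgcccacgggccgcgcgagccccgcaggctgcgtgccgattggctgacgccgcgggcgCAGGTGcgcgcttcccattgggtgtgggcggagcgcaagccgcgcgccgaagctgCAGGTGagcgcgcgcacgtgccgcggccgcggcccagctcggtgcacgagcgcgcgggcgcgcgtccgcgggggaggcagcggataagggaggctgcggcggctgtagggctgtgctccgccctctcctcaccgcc
Rab25, chr3:88548230-88548529, minus strand: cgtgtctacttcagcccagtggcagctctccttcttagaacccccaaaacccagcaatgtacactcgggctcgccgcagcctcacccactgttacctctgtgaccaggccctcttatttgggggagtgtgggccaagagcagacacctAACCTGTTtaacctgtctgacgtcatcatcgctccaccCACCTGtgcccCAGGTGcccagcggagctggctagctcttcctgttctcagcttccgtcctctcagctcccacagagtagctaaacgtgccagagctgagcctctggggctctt
Cgn, chr3:94786433-94786732, minus strand: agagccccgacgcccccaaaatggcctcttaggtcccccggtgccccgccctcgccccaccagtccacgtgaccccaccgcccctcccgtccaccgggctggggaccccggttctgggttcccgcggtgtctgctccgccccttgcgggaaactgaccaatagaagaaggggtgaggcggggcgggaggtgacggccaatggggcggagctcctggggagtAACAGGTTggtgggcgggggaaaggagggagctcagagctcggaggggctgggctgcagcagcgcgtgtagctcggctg

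Spint2 held 3 E-boxes, all before the start, and Pard6b, Epcam and Rab25 held 2 each. Lsr and Crb3, not shown, held 4 each. The Cgn window held no E-box.

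Most of the members were higher in Cav-3KO glands. Of 37, 28 rose and none fell, against 7.65% of all genes that rose and 8.51% that fell (16.2% in either direction), and 9 did not pass the test. Because the members were chosen with earlier results of these data known, these shares describe the list and do not test it. The median difference was 1.10, beside −0.01 over all genes. For 31 members all 3 Cav-3KO arrays lay above all 3 WT arrays, a pattern found in 18.5% of all genes, and for 1 member, Dsc3, all 3 lay below, a pattern found in 19.8%. At least 2-fold rises were seen in 20 members, against 2.36% of all genes. The rise was uneven: every measured member of the tight junction, surface protease and splicing groups rose, while 5 of 10 desmosome members, 2 of 5 adherens junction members and 2 of 4 polarity members did not pass the test. This is a comparison of counts, and the difference between groups was not tested. Because the gland was measured whole, a larger share of epithelial cells and more RNA per epithelial cell cannot be told apart.

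**Figure D1:**
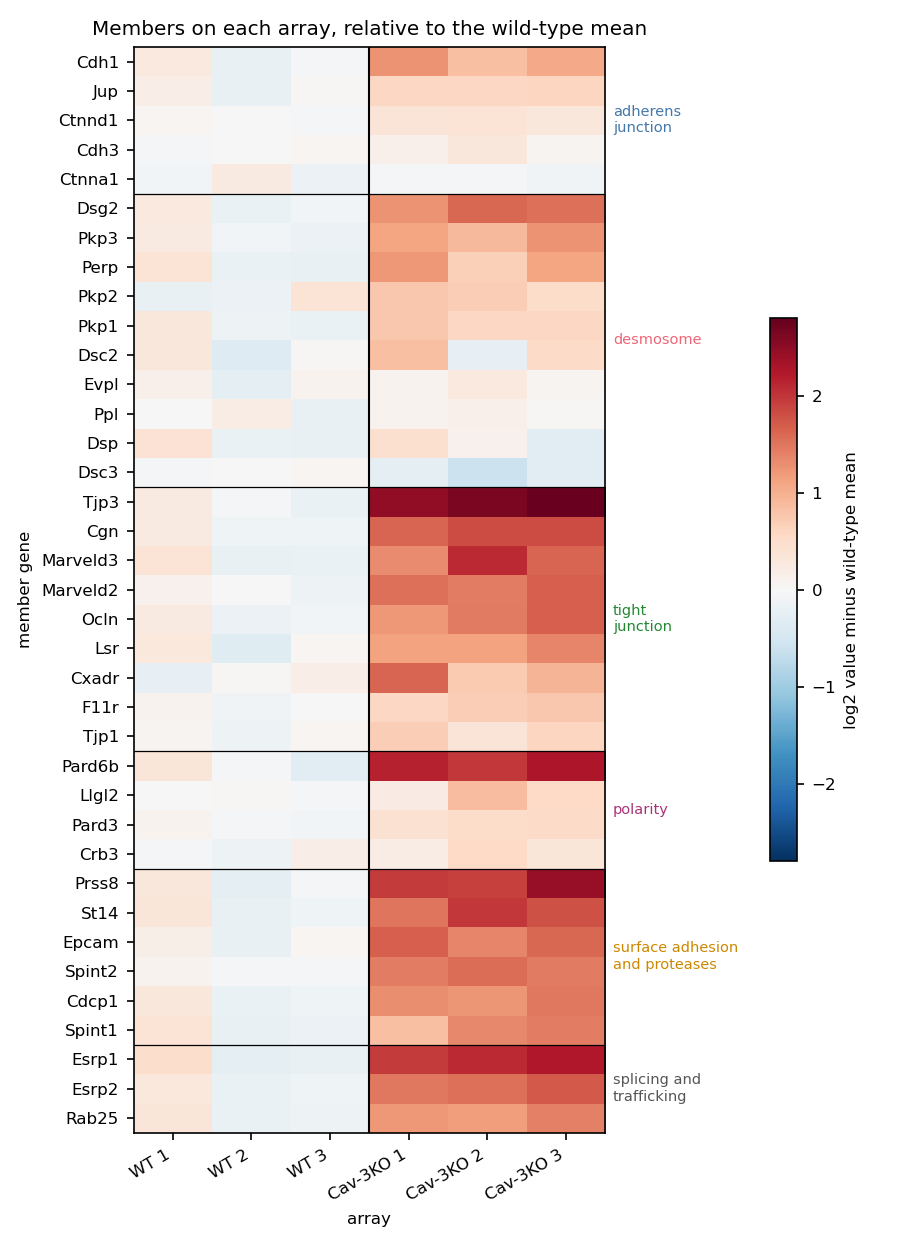
Log2 value of each of the 37 members on each of the 6 arrays minus that gene's WT mean, as colour, with genes in rows by group and arrays in columns. The Cav-3KO columns are red for most tight junction, surface and splicing genes, with Tjp3 up to 2.76 above its WT mean, while Dsp, Ppl, Evpl and Ctnna1 stay near 0 and Dsc3 is blue.

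All 9 tight junction members rose, with a median difference of 1.45. Tjp3 encodes ZO-3, a scaffold found under the tight junctions of epithelia. It read 7.13, 6.82 and 6.70 in WT 1 to 3 and 9.37, 9.52 and 9.64 in Cav-3KO 1 to 3. The rise of 2.63 ± 0.13 (6.17-fold, adjusted p = 0.000319 by limma) was the highest among the members, and the lowest Cav-3KO array lay more than 2-fold above the highest WT array. Cgn encodes cingulin, which ties the junction to actin and myosin, and read 7.49, 7.13 and 7.12 in WT against 8.87, 9.07 and 9.07 in Cav-3KO. It rose by 1.76 ± 0.13, and its second probe set rose by 0.99 ± 0.12. Marveld2, or tricellulin, seals the corners where cells meet in threes, and read 5.59, 5.48 and 5.33 in WT against 7.02, 6.89 and 7.15 in Cav-3KO. Its rise of 1.55 ± 0.11 was large beside a spread between replicates of 0.13 (SD) in each group. Ocln encodes occludin, a membrane protein of the junction strands, and read 6.20, 5.80 and 5.87 in WT against 7.18, 7.41 and 7.64 in Cav-3KO, a rise of 1.45 ± 0.15. For each of these genes the groups did not overlap.

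The other tight junction members also rose. Marveld3, another protein of the occludin family, rose by 1.68 ± 0.23, and Cav-3KO 2 was its highest array at 9.63. Lsr, which recruits tricellulin to cell corners, rose by 1.20 ± 0.16. F11r, the adhesion molecule JAM-A, and Tjp1, the scaffold ZO-1 that is shared with endothelium and other tissues, rose by 0.68 ± 0.09 and 0.55 ± 0.12. Cxadr, the coxsackievirus and adenovirus receptor, rose by 1.11 ± 0.22, with Cav-3KO 1 at 8.38 apart from 7.50 and 7.71. Tjp1 lost its call without WT 1, 2 or 3 (adjusted p = 0.0515, 0.0734 and 0.0628) and without Cav-3KO 1 or 3 (0.0608 and 0.0830). Cxadr lost it without WT 1 or 2 (0.0623 and 0.0540) and without Cav-3KO 3 (0.0545).

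Of 15 measured genes on a further list of tight junction proteins, 5 rose and 2 fell, with a median difference of 0.31. Igsf5, a junctional adhesion molecule, rose by 2.32 ± 0.25, from 5.87, 5.57 and 5.41 in WT to 7.34, 8.39 and 8.09 in Cav-3KO. Magi3 and Patj, both PDZ scaffolds, rose by 1.09 ± 0.13 and 1.04 ± 0.10. Ildr2, a relative of Lsr, fell by 0.66 ± 0.12, and Jam2, which is prominent in endothelium, fell by 0.48 ± 0.10. Beside Jam2, 2 of 8 endothelial markers fell, and the mean of that list ranged from 8.49 to 8.63 in WT and from 8.26 to 8.45 in Cav-3KO. The part of endothelial RNA in the fall of Jam2 was not tested.

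The surface proteins showed rises of 1.21 or more in all 6 members, with a median of 1.52. St14 (matriptase) and Prss8 (prostasin) are membrane-bound serine proteases that activate each other at epithelial surfaces, and Spint1 and Spint2 are the Kunitz inhibitors that hold them in check. Prss8 read 8.07, 7.50 and 7.72 in WT 1 to 3 and 9.73, 9.69 and 10.20 in Cav-3KO 1 to 3, a rise of 2.11 ± 0.18 (4.31-fold, adjusted p = 0.0012 by limma). St14 read 8.46, 7.92 and 8.01 in WT and 9.63, 10.11 and 9.90 in Cav-3KO, a rise of 1.75 ± 0.17. The inhibitors were higher on the same arrays as the proteases. Spint2 read 8.12, 7.97 and 7.99 in WT against 9.46, 9.60 and 9.47 in Cav-3KO, with a rise of 1.49 ± 0.09 and the lowest p of this group (adjusted p = 0.00048). The suffix of that set marks possible matches to other transcripts, and the other Spint2 set rose by 1.14 ± 0.09 (adjusted p = 0.00106 by limma). Spint1 rose by 1.21 ± 0.20. Epcam, a homophilic adhesion protein of epithelia that matriptase can cleave, read 9.25, 8.87 and 9.14 in WT against 10.75, 10.46 and 10.69 in Cav-3KO, a rise of 1.55 ± 0.13. Its second probe set, whose suffix marks possible matches to other transcripts, rose by only 0.42 ± 0.09. Cdcp1, a transmembrane substrate of matriptase, rose by 1.34 ± 0.14.

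Of 20 measured genes on a list of other membrane proteases, inhibitors and epithelial surface proteins, 7 rose and 2 fell, with a median of −0.03. Ceacam1, a surface adhesion protein, read 9.24, 9.06 and 9.00 in WT against 10.73, 10.72 and 10.75 in Cav-3KO, a rise of 1.64 ± 0.09. Cd24a and the tetraspanin Cd9 rose by 1.32 ± 0.14 and 0.94 ± 0.11. Tmprss2, another membrane serine protease, went the other way, from 11.64, 10.80 and 11.33 to 9.61, 9.81 and 9.30, a fall of 1.69 ± 0.22. Prss23, a secreted protease, fell by 0.52 ± 0.14. Among the hormone-sensing luminal markers, Esr1 and Foxa1 fell on the same arrays, by 0.55 ± 0.10 and 1.31 ± 0.31, while Pgr differed by −0.03 ± 0.28 with overlapping groups. The part of such cells in the fall of Tmprss2 was not tested.

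The splicing and trafficking members rose together. Esrp1 and Esrp2 bind RNA and produce the epithelial splice forms of many transcripts. Esrp1 read 8.68, 7.94 and 7.98 in WT 1 to 3 and 10.16, 10.29 and 10.45 in Cav-3KO 1 to 3, a rise of 2.10 ± 0.20 (4.28-fold, adjusted p = 0.00142 by limma). Esrp2 read 7.98, 7.50 and 7.56 in WT against 9.16, 9.22 and 9.40 in Cav-3KO, a rise of 1.58 ± 0.14. Rab25, a small GTPase of recycling endosomes in epithelia, read 7.51, 7.0 and 7.03 in WT against 8.40, 8.35 and 8.59 in Cav-3KO, a rise of 1.27 ± 0.15. In all 3 genes WT 1 was the highest WT array and Cav-3KO 3 the highest of all.

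Polarity genes rose less evenly, in 2 of 4 members. Pard6b is an adaptor of the PAR complex that binds atypical protein kinase C. It read 6.45, 6.05 and 5.81 in WT against 8.26, 8.09 and 8.36 in Cav-3KO, a rise of 2.14 ± 0.17 (4.39-fold, adjusted p = 0.00084 by limma), and its other probe set rose by 2.23 ± 0.16. Pard3, the scaffold that anchors that complex at the junction, read 8.58, 8.44 and 8.41 in WT against 8.91, 8.99 and 9.00 in Cav-3KO. Its rise was 0.49 ± 0.09 (adjusted p = 0.0133, and 0.0531 and 0.0539 without WT 3 or Cav-3KO 3). Llgl2, of the basolateral Scribble module, read 7.34, 7.37 and 7.28 in WT and 7.57, 8.20 and 7.88 in Cav-3KO. The groups did not overlap, but the difference of 0.55 ± 0.15 missed the threshold (adjusted p = 0.0549), and it passed without Cav-3KO 1 (difference 0.71, adjusted p = 0.0190) and with the replicate number as a block (adjusted p = 0.0495). Crb3, the epithelial Crumbs protein, read 6.91, 6.81 and 7.14 in WT and 7.16, 7.50 and 7.29 in Cav-3KO, with a difference of 0.37 ± 0.13 (adjusted p = 0.104). Its 3 probe sets disagreed: another set rose by 0.90 ± 0.19 (adjusted p = 0.0205) and the remaining set differed by −0.09 ± 0.10.

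Of 24 measured genes on a list of other polarity proteins, 6 rose and none fell, with a median of 0.17. Prkcz, an atypical protein kinase C, rose by 0.73 ± 0.11, from 7.32, 7.08 and 7.18 to 7.80, 7.88 and 8.10. Dlg1 and Llgl1, of the Scribble module, rose by 0.45 ± 0.09 and 0.46 ± 0.09.

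Among adherens junction members 3 of 5 rose. Cdh1 encodes E-cadherin, the cadherin of luminal cells. It read 8.45, 7.98 and 8.12 in WT 1 to 3 and 9.45, 9.02 and 9.25 in Cav-3KO 1 to 3, a rise of 1.06 ± 0.15 (2.08-fold, adjusted p = 0.00634 by limma). Jup encodes plakoglobin, a catenin shared by adherens junctions and desmosomes. It read 9.28, 8.88 and 9.12 in WT against 9.66, 9.66 and 9.69 in Cav-3KO, a rise of 0.58 ± 0.11 that lost its call without WT 3 (adjusted p = 0.0551) or Cav-3KO 3 (0.0634). Its only probe set is of a kind that can match several transcripts. Ctnnd1, a catenin that keeps cadherins at the membrane, read 8.65, 8.58 and 8.57 in WT against 8.95, 8.98 and 8.90 in Cav-3KO. That rise of 0.35 ± 0.08 (adjusted p = 0.0305) lost its call with any 1 of the 6 arrays left out (0.0559 to 0.0998), and neither of its other probe sets passed.

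The remaining adherens junction members did not pass the test. Cdh3, the cadherin of basal cells, read 5.75, 5.78 and 5.83 in WT and 5.94, 6.11 and 5.86 in Cav-3KO. Its difference was 0.18 ± 0.09 (95% interval −0.04 to 0.40), so a 2-fold rise lay outside the interval. The basal markers Krt5 and Krt14 rose by 1.25 ± 0.10 and 1.32 ± 0.19 on the same arrays. Over all 9 basal markers, of which 8 rose, differences ran from 0.43 to 1.39 with a median of 0.75. Ctnna1, the alpha-catenin expressed in most cell types, differed by −0.07 ± 0.12, with 0 of its 4 probe sets past the threshold. Of 14 measured genes on a list of other adherens junction proteins, 2 rose and none fell: Nectin2 by 0.54 ± 0.10 and Nectin4, a nectin of epithelia, by 1.16 ± 0.24.

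Of 10 measured desmosome genes, 5 rose and 5 did not pass the test. Dsg2, the desmoglein of simple epithelia, read 8.55, 8.10 and 8.21 in WT 1 to 3 and 9.55, 9.89 and 9.84 in Cav-3KO 1 to 3. Its rise of 1.47 ± 0.15 (2.78-fold, adjusted p = 0.00165 by limma) was shared by 5 of its 6 probe sets. Pkp3, a plakophilin of epithelia, read 8.66, 8.34 and 8.26 in WT against 9.53, 9.34 and 9.68 in Cav-3KO, a rise of 1.10 ± 0.14. Perp, a tetraspan protein needed for stable desmosomes, read 8.67, 8.09 and 8.08 in WT against 9.49, 8.94 and 9.38 in Cav-3KO, a rise of 0.99 ± 0.20. Pkp1 read 8.35, 7.90 and 7.84 in WT against 8.79, 8.62 and 8.60 in Cav-3KO, a rise of 0.64 ± 0.15, and Pkp2 rose by 0.65 ± 0.16. These 5 genes did not overlap between the groups.

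Dependence on single arrays was common in the desmosome group. Perp lost its call without WT 2 or 3 (adjusted p = 0.0620 and 0.0690) and without Cav-3KO 1 or 3 (0.0523 and 0.0735). Pkp1 lost it without WT 2 or 3 (0.0906 and 0.0959) and without Cav-3KO 1 or 3 (0.0773 each). Pkp2 kept it without WT 3 and lost it without each of the other 5 arrays (0.0711 to 0.116). Dsg2 and Pkp3 kept theirs throughout.

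The plaque protein that ties desmosomes to keratin was not among the genes that rose. Dsp, desmoplakin, read 9.07, 8.49 and 8.47 in WT against 9.14, 8.80 and 8.36 in Cav-3KO, and the groups overlapped. Its difference was 0.09 ± 0.23 (95% interval −0.44 to 0.61), and 0 of its 3 probe sets passed. Envoplakin (Evpl) and periplakin (Ppl), plakins best known from stratified epithelia, differed by 0.15 ± 0.13 and 0.10 ± 0.12. The desmocollins were dim, with array values from 4.53 to 5.96. Dsc2 differed by 0.38 ± 0.28, with Cav-3KO 2 at 4.88 inside the WT range, while its other probe set rose by 0.38 ± 0.09 (adjusted p = 0.0397). Dsc3 read 5.09, 5.12 and 5.17 in WT and 4.85, 4.53 and 4.83 in Cav-3KO. All 3 Cav-3KO arrays lay below the WT arrays, and the difference of −0.39 ± 0.11 missed the threshold (adjusted p = 0.0554).

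Of 10 measured genes on a list of other desmosome and plaque genes, 4 rose and none fell, and these were the keratins to which desmosomes attach: Krt5, Krt14, Krt8 (0.86 ± 0.18) and Krt18 (0.88 ± 0.23). The epidermal cadherin genes Dsg1a, Dsg1b and Dsc1 differed by 0.03, −0.16 and −0.21 and did not pass. Skin attached to a gland would carry epidermal desmosomes. Of 12 epidermal markers 1 rose (Sbsn, by 0.92 ± 0.25) and none fell. The mean of the list was 4.68 to 4.72 in WT and 4.61 to 4.74 in Cav-3KO. The part of attached skin in the desmosome values was not tested.

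**Figure D2:**
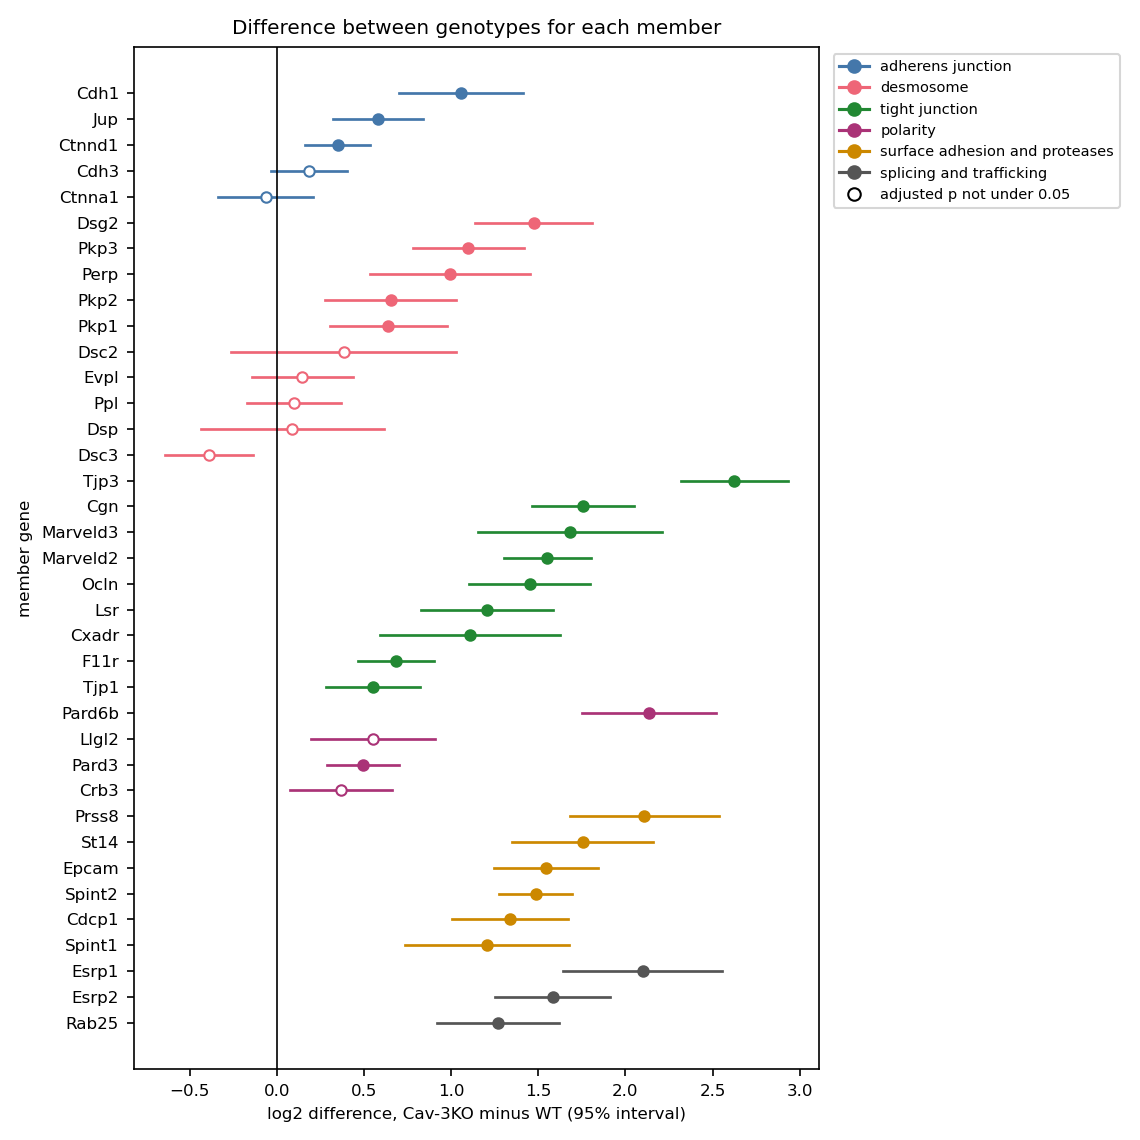
Log2 difference between Cav-3KO and WT for the 37 members with its 95% interval, coloured by group, filled where the adjusted p from limma was under 0.05. Tight junction, surface and splicing genes are all filled and reach 2.63 (Tjp3), while 5 desmosome genes, 2 adherens junction genes and 2 polarity genes are open.

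Genes known to control the epithelial programme were counted beside the members. Of 22 measured regulators and trafficking genes of epithelial identity, 14 rose and none fell, with a median of 1.13. Ehf, an ETS factor of epithelia, read 8.59, 8.28 and 7.73 in WT against 10.73, 10.30 and 10.70 in Cav-3KO, a rise of 2.38 ± 0.22. Ap1m2, the epithelial adaptor subunit for basolateral sorting, and Exph5, an effector of Rab27, rose by 2.19 ± 0.19 and 1.40 ± 0.12. The grainyhead genes Grhl1 and Grhl2, named here because of the motif search, rose by 2.38 ± 0.23 and 1.20 ± 0.13, while Grhl3 read 2.58 to 3.01 on all arrays, within the range of the background probe sets.

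Of 13 repressors of epithelial genes and mesenchymal genes, 5 fell and none rose past the threshold, with a median of −0.25. Twist2 fell by 0.70 ± 0.10, Prrx1 by 0.72 ± 0.15 and Zeb1 by 0.48 ± 0.10. Zeb1 read 10.32, 10.26 and 10.15 in WT against 9.71, 9.94 and 9.67 in Cav-3KO. Snai2, a repressor that basal mammary cells express, read 9.90, 9.73 and 9.55 in WT and 10.02, 10.07 and 10.10 in Cav-3KO. All 3 Cav-3KO arrays lay above the WT arrays, and the difference of 0.34 ± 0.11 missed the threshold (adjusted p = 0.0819). Of 8 fibroblast markers 0 passed, and the list mean was 11.36 to 11.82 in WT and 11.38 to 11.98 in Cav-3KO. White adipocyte markers fell in 6 of 8 genes, with a list mean of 11.19 to 11.44 in WT against 10.31 to 10.69 in Cav-3KO. The part of adipocyte RNA in the falls of the repressors was not tested.

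Epithelial markers moved with the members. Of 14 luminal markers 9 rose and 2 fell, and of 9 basal markers 8 rose and none fell. The luminal list mean was 9.59, 9.01 and 9.22 in WT 1 to 3 and 10.12, 10.02 and 9.96 in Cav-3KO 1 to 3. The basal list mean was 8.93, 8.84 and 8.78 in WT against 9.76, 9.63 and 9.76 in Cav-3KO. Among WT arrays, WT 1 had the highest luminal mean and also lay above the WT mean in 31 of 37 members, against 5 for WT 2 and 12 for WT 3. Skeletal muscle markers varied more within groups, with list means of 8.12, 9.27 and 5.58 in WT and 5.06, 6.66 and 7.29 in Cav-3KO. With that list mean as a covariate 24 members rose, beside 1037 of all genes. Ctnnd1, Pkp1, Pkp2 and Tjp1 lost their calls in that fit (adjusted p = 0.0698, 0.0655, 0.0598 and 0.0649 by limma).

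**Figure D3:**
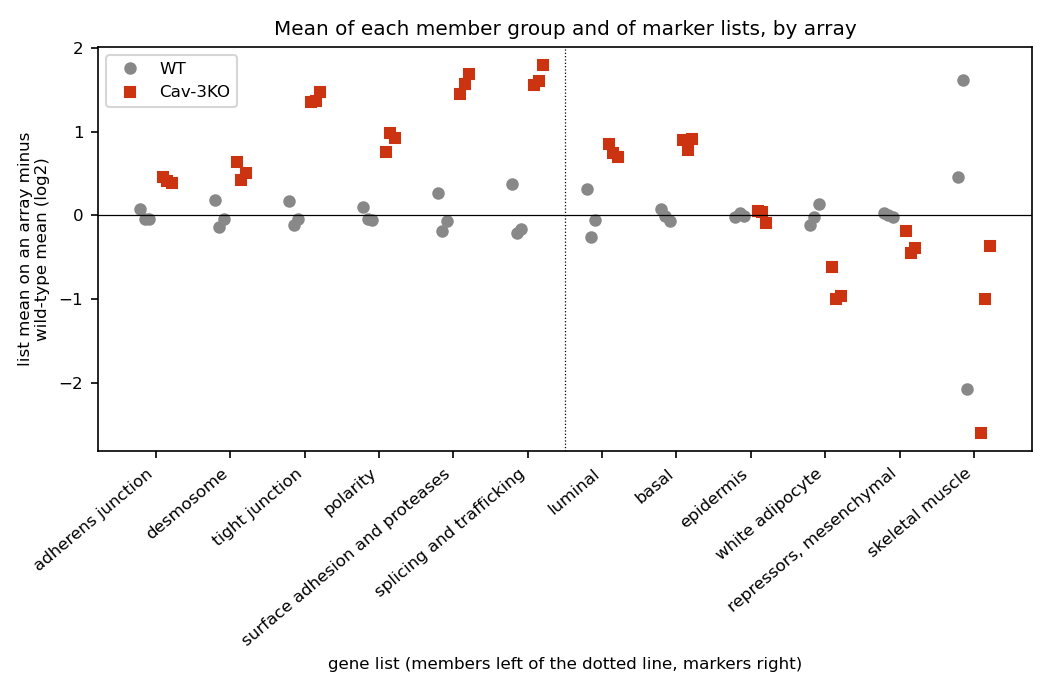
Mean log2 value of each member group (left) and of each marker list (right) on each array, minus the mean of the 3 WT arrays, with grey circles for WT and red squares for Cav-3KO. Member groups and both epithelial lists lie above 0 in every Cav-3KO array, epidermal markers stay near 0, adipocyte markers lie below, and muscle markers scatter in both groups.

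Members were next set against keratin on the same array, a scale chosen after the data had been seen. The mean of Krt5, Krt14, Krt8, Krt18 and Krt19 was 10.29, 9.67 and 10.05 in WT 1 to 3 and 11.20, 10.89 and 11.05 in Cav-3KO 1 to 3, a difference of 1.05. On this scale the median member difference was 0.05, and that of all genes was −1.05. No test was made, since the error of the keratin mean is common to every gene. All 3 Cav-3KO arrays lay above the WT arrays in 9 members (0.698% of all genes did so) and below them in 13 members (90.6% of all genes did so), and 15 members overlapped.

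These counts depended on which keratins were used. The 5 keratins each rose, while Krt7, a luminal keratin, differed by −0.24 ± 0.24 and Krt17, a basal keratin, rose by 0.55 ± 0.14. With both added, the mean of 7 keratins was 9.41, 8.81 and 9.18 in WT and 10.13, 9.79 and 9.85 in Cav-3KO, a difference of 0.79. The median member difference was then 0.31, with 17 members above the WT arrays (1.14% of all genes), 8 below (81.9% of all genes) and 12 overlapping. The 9 members above on the first scale were all among the 17. Adding Krt7 and Krt17 lowered the keratin mean more on every Cav-3KO array than on any WT array. A gene above on the first scale therefore had to be above on the other, so this overlap is no separate check. Likewise, a gene below with 7 keratins had to be below with 5.

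The 9 members above on the scale of 5 keratins, and so on both, were Tjp3, Pard6b, Prss8, Esrp1, Cgn, St14, Esrp2, Marveld2 and Epcam. Tjp3 relative to the 5 keratins read −3.16, −2.85 and −3.35 in WT and −1.83, −1.38 and −1.41 in Cav-3KO, a difference of 1.58 ± 0.21 (SE from the replicates alone). The differences for Pard6b, Prss8 and Esrp1 were 1.09 ± 0.20, 1.06 ± 0.18 and 1.05 ± 0.20. Cdh1 overlapped on the scale of 5 keratins, with −1.85, −1.69 and −1.93 in WT and −1.75, −1.87 and −1.81 in Cav-3KO, a difference of 0.01 ± 0.08, and stood above on that of 7, with a difference of 0.27 ± 0.08. Pkp3 and Perp overlapped on both scales, at 0.05 ± 0.16 and −0.05 ± 0.15 on the first. The 8 members below on both scales were Dsc3, Ctnna1, Dsp, Ppl, Evpl, Cdh3, Ctnnd1 and Dsc2, while Crb3, Pard3, Tjp1, Jup and Pkp1 were below on the first and overlapped on the other. Dsp relative to the 5 keratins was −1.22, −1.18 and −1.58 in WT and −2.06, −2.10 and −2.69 in Cav-3KO, a difference of −0.96 ± 0.24. Before scaling Dsp differed by 0.09 ± 0.23, and the mean of the 5 keratins by 1.05. A gene that is level between the groups thus lies below on this scale, as 90.6% of all genes did.

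**Figure D4:**
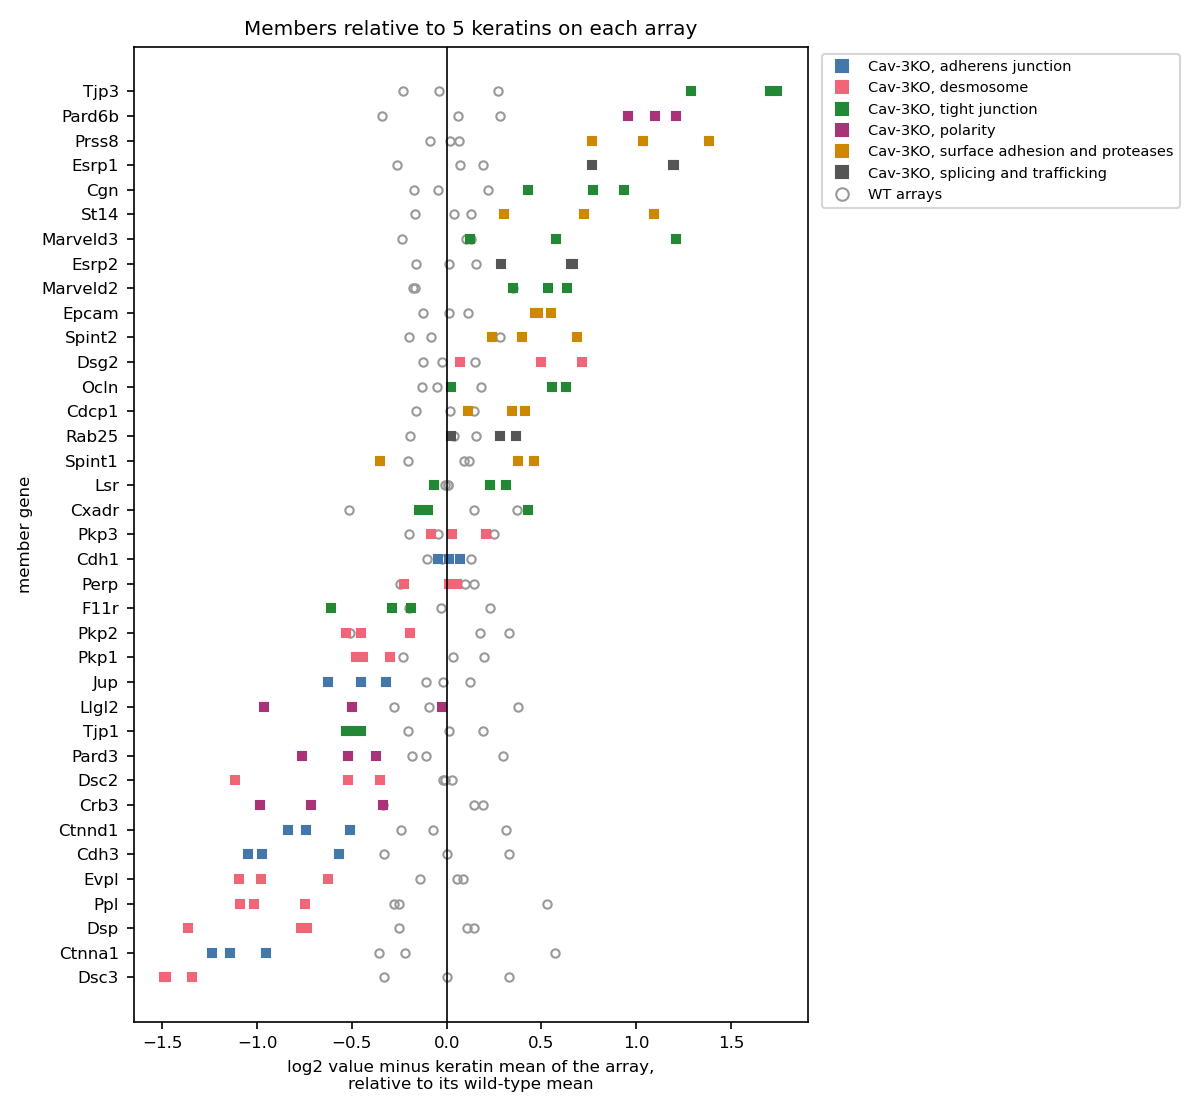
Log2 value of each member minus the mean of 5 keratins on the same array, set to 0 at the WT mean, with open circles for WT arrays and filled squares for Cav-3KO arrays coloured by group. Tjp3, Pard6b, Prss8 and Esrp1 lie furthest to the right, Cdh1 and Pkp3 lie around 0, and Dsc3, Ctnna1 and Dsp lie to the left.

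The members had 75 probe sets in all, of which 44 rose and none fell. Of the 38 probe sets not used to represent a gene, 16 rose. Among these, 2 of 12 sets with a mean under 5 rose, against 14 of 26 brighter ones. The matching shares over all probe sets tested were not counted, so these counts describe the members alone. Some genes that rose had another set that did not pass. F11r had a second set at 0.00 ± 0.08 with a mean of 4.99, and Esrp2 had a second set at 0.60 ± 0.19 (adjusted p = 0.0861). Pkp2 had 3 further sets with differences of 0.29 to 0.54, none past the threshold. Pard3 had sets at 0.34 ± 0.10 (mean 8.40, adjusted p = 0.0680 by limma) and 0.21 ± 0.15. Cxadr had sets at 0.50 ± 0.17 (adjusted p = 0.105 by limma) and 0.11 ± 0.08. Lsr and Marveld3 had dim sets at −0.02 ± 0.09 and 0.05 ± 0.16, with means of 3.4 and 3.7.

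**Figure D5:**
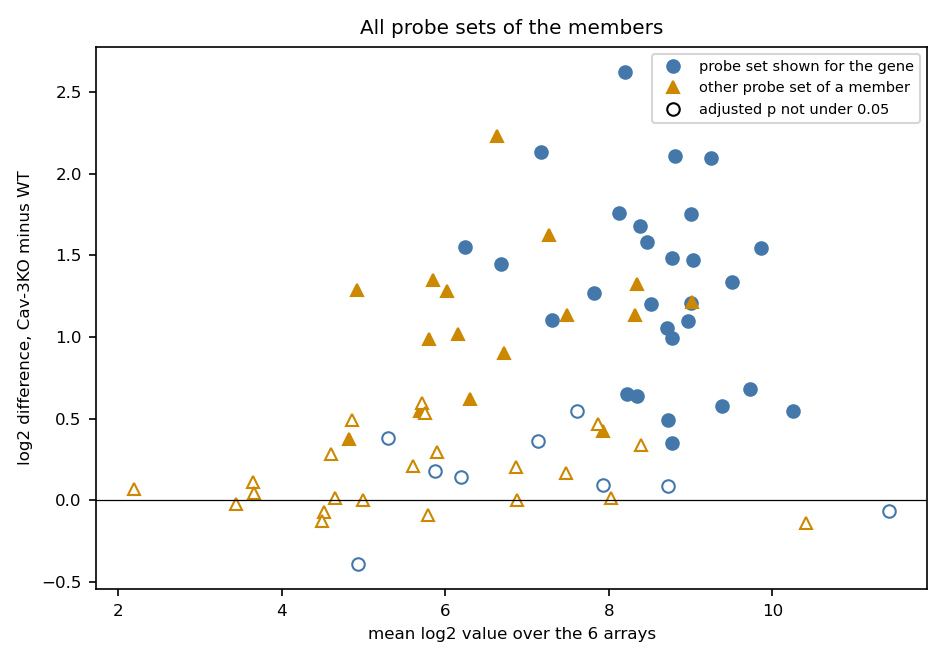
Log2 difference of all 75 probe sets of the members against their mean log2 value over the 6 arrays, with blue circles for the set that represents a gene and orange triangles for the others, filled where the adjusted p was under 0.05. Most filled points lie at means of 5 or more, and no filled point lies below 0.

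Leaving out WT 1, 2 or 3 left 24, 22 and 22 members higher, beside 845, 729 and 660 of all 18193 genes. Leaving out Cav-3KO 1, 2 or 3 left 24, 26 and 20 members higher, beside 1232, 1718 and 629 of all genes. With 6 arrays 1392 of all genes rose. No member was lower past the threshold in any of the fits with 1 array left out. Of the 28 members that rose, 20 kept the call in all 6 of these fits: Cdh1, Dsg2, Pkp3, Tjp3, Ocln, Marveld2, Marveld3, F11r, Cgn, Lsr, Pard6b and all 8 of Epcam, Spint1, Spint2, St14, Prss8, Cdcp1, Esrp1 and Esrp2, together with Rab25. Cav-3KO 3 held the highest value of 16 of the 28 and WT 2 the lowest value of 17. The same count was not made over all genes, so it does not single out the members.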

How the data were processed

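The authors deposited log2 signals, 1 per probe set and array. The submitters' processing notes name RMA, a method that corrects background, makes the arrays share a distribution and summarises the probes of a set. This compresses differences of dim sets and would remove a shift common to most genes. No version is recorded. Of 45101 probe sets, 64 controls were left out and 45037 tested, with no filter. Probe sets took names from the platform annotation, updated by Entrez identifier with RefSeq (GRCm38.p6): 34945 had a single symbol, 932 had several and 9160 were not listed there.

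The test between genotypes was limma's moderated one (version 3.58.1, R 4.3.3, with eBayes on 4 residual degrees of freedom, two-sided), with Benjamini-Hochberg adjustment over all probe sets tested and a threshold of 0.05. Depth does not apply to arrays, and 3 per group limit the precision. The fit was tested on simulated data. Per group of members, the 4 lowest p-values and any lower member past the threshold are given array by array, and per pathway list the 3 lowest p-values past the threshold and any opposite call. Members and lists were chosen with earlier results of these data known. Alternatives were other normalizations, a filter, another prior, each array left out, the replicate number as a block, other probe sets, a muscle covariate, a stricter threshold and 2 keratin scales, which were chosen after seeing the data. Figures were drawn with matplotlib 3.10.9.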

Additional observations from a re-analysis of the deposited data

How the results depend on the processing

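No member was lower past the threshold in any setting run, and no member past the threshold changed sign. The number of members that rose was 28 after median centring, quantile normalization again, dropping dim probe sets or using a prior that follows intensity. Over all genes, 1447, 1393, 1441 of 16488 and 1332 rose in those settings. With averaged probe sets 27 members and 1374 of all genes rose. Without sets that can match several transcripts, 25 of 36 members (Jup has no other set) and 1334 of 17903 genes rose. At a threshold of 0.01 the counts were 19 members and 446 of all genes. The median difference ranged from 0.953 to 1.19 with 1 array left out, and was 0.984 with averaged probe sets, 1.0 with the muscle covariate and 0.0517 or 0.305 relative to 5 or 7 keratins, scales that subtract a mean which itself differed by 1.05 or 0.79. Over all genes, 1392 rose and 1549 fell with 6 arrays, against 629 and 606 without Cav-3KO 3. Ctnnd1 and Pkp2 lost their calls without sets that can match several transcripts (adjusted p = 0.375 and 0.161), where another probe set represents them, and Ctnnd1 with averaged sets (0.0811).

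With the replicate number as a block, 27 members rose, beside 1421 of all genes. Ctnnd1 and Pkp2 lost the call (adjusted p = 0.0641 and 0.0590 by limma) and Llgl2 gained it. The labels do not say that numbers pair the glands, and deviations of same-numbered arrays correlated at −0.05, 0.19 and −0.02 over probe sets, with only WT 2 closest to its own number among WT arrays. With 3 arrays per group the interval of a difference was as wide as −0.26 to 1.03 (Dsc2).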

Other observations

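Cell division markers were higher beside the junction genes, in 6 of 7 measured markers, with a median difference of 1.56. Mki67, a marker of dividing cells, read 8.46, 7.26 and 7.98 in WT 1 to 3 and 9.78, 8.71 and 10.49 in Cav-3KO 1 to 3, a rise of 1.76 ± 0.45 (adjusted p = 0.0425 by limma). The list mean was 8.89, 8.05 and 8.56 in WT 1 to 3 and 9.76, 9.29 and 10.68 in Cav-3KO 1 to 3. Lymphocyte markers were lower, in 6 of 7 measured markers, with list means of 7.82 to 8.20 in WT and 7.17 to 7.38 in Cav-3KO.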
